A study of Homo sapiens with 23 samples.

Results

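The genes described here are 9 members of the tumour necrosis factor (TNF) ligand and receptor families. They are the ligands *TNFSF9*, *TNFSF10* and *TNFSF15* and the receptors *FAS*, *TNFRSF10A*, *TNFRSF10B*, *TNFRSF1A*, *TNFRSF12A* and *TNFRSF21*. They were chosen by symbol, with earlier results of these data known, and matched by Ensembl identifier. They are 9 of the 57875 genes listed and 9 of the 22842 genes that passed the filter on low counts. RNA from HCT116 cells, a human colorectal carcinoma line, was measured by RNAseq in wild-type cells, in single knockouts of *AGO1* or *AGO2*, in the double knockout *AGO1/2* and in the triple knockout *AGO1/2/3*. Argonaute (AGO) proteins carry miRNAs to target RNAs, and the study asked how loss of the AGO variants changes steady state RNA levels. There were 5 lines with 3 biological replicates each. All lines share the HCT116 background, and no treatment is named in the labels. Each knockout genotype was represented by a single CRISPR-edited line, so genotype and line cannot be told apart. The 8 eCLIP samples of the series were not analysed here.

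Ligands of the TNF superfamily bind as trimers to receptors of the TNF receptor superfamily. Receptors with a death domain, such as FAS, the TRAIL receptors TNFRSF10A (DR4) and TNFRSF10B (DR5), TNFRSF1A (TNFR1) and TNFRSF21 (DR6), can recruit adaptors such as FADD or TRADD. From there the signal runs to caspase 8 and apoptosis, or through RIPK1, TRAF proteins and linear ubiquitin to NF-κB. TNFRSF12A (Fn14) has no death domain and signals through TRAF proteins. In colorectal carcinoma cells this pathway is best known for killing by the ligand TRAIL, the product of *TNFSF10*.

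The miRNAs considered are those whose copies per cell were measured in HCT116 cells by qPCR. Their mature sequences, all 6 found in RefSeq, are shown 5′ to 3′ because their seeds define the matches described next. Capitals mark the seed, bases 2 to 8. let-7a and let-7f have the same seed, so the 6 miRNAs give 5 motifs.
let-7a-5p: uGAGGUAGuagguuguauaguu
let-7f-5p: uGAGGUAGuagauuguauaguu
miR-21-5p: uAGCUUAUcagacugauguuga
miR-27a-3p: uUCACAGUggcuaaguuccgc
miR-29a-3p: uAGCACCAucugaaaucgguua
miR-125b-5p: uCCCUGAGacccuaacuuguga

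The 3′-UTR of the MANE Select transcript of each gene (GENCODE v44, GRCh38, the build hg38 of the files) was searched on the transcript strand for the letters that pair with bases 2 to 8. These are CTACCTC for let-7, ATAAGCT for miR-21, ACTGTGA for miR-27a, TGGTGCT for miR-29a and CTCAGGG for miR-125b, and no motif contains another. A let-7 match was present in *TNFSF9*, *TNFSF10* and *FAS*, and in none of the other 6 genes. The following sites lie in 3′-UTR exons of genes whose RNA differed between lines, and capitals mark the match.
TNFSF9, let-7, chr19:6535145-6535168, plus strand: cctgctgctttctCTACCTCaagg
TNFSF9, miR-29a, chr19:6535120-6535143, plus strand: tcatggagaccccTGGTGCTgggt
TNFSF10, let-7, chr3:172506244-172506267, minus strand: atctttcaggactCTACCTCatat
FAS, let-7, chr10:89014991-89015014, plus strand: tttaaataaggctCTACCTCaaag
TNFRSF1A, miR-29a, chr12:6329185-6329208, minus strand: gcagccgcctactTGGTGCTaacc

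In *TNFSF9* the miR-29a and let-7 matches began 25 bases apart, at bases 68 and 93 of an 858-base 3′-UTR. The let-7 match began at base 239 of 984 in *TNFSF10* and at base 555 of 2609 in *FAS*, which also held matches for miR-29a and miR-27a. Among all MANE Select 3′-UTRs within 20% of the same length, a let-7 match was present in 5.62% (of 2046) for *TNFSF9*, 6.25% (of 2097) for *TNFSF10* and 13.7% (of 2298) for *FAS*. The 3′-UTR of *TNFRSF10B* held 1 match for miR-21, 1 for miR-29a and 2 for miR-125b. *TNFSF15* held 1 for miR-21, and *TNFRSF10A*, *TNFRSF12A* and *TNFRSF21* held no match to bases 2 to 8. A match is a description of the letters, and AGO binding at these sites was not analysed here. The study reported a significant AGO2 eCLIP cluster in the 3′-UTR of *TNFSF9* and listed predicted miRNA sites there, miR-29a among them.

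**Figure D1:**
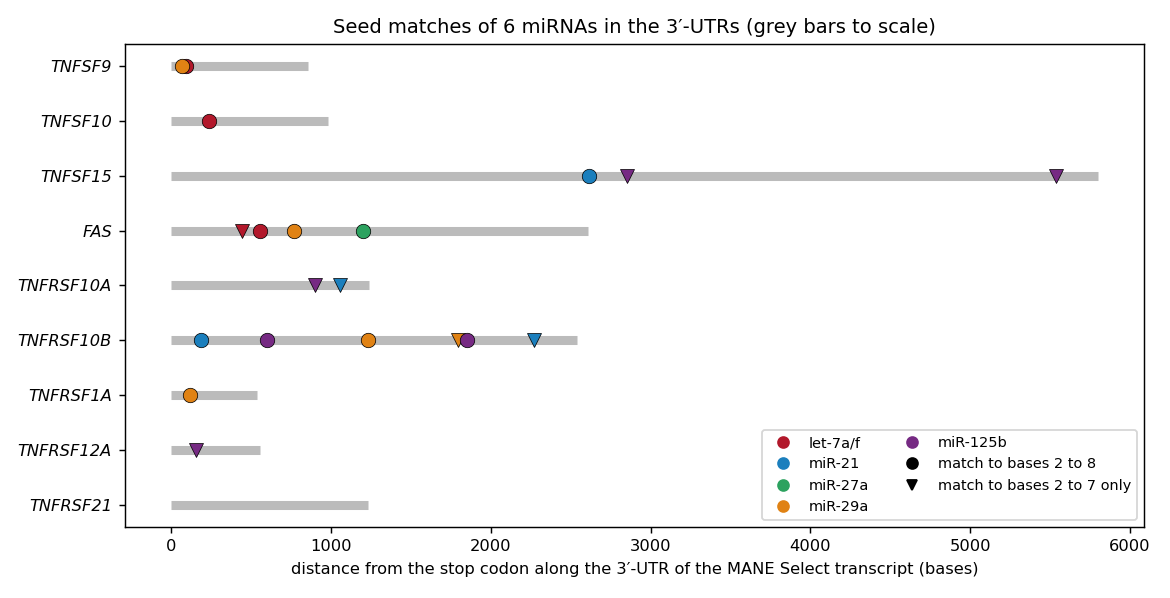
Seed matches of the 6 miRNAs along the 3′-UTR of each of the 9 genes. The horizontal axis is the distance from the stop codon in bases, the grey bars are the 3′-UTRs to scale, circles are matches to bases 2 to 8 and triangles are matches to bases 2 to 7 only. The let-7 matches to bases 2 to 8 lie in *TNFSF9*, *TNFSF10* and *FAS*.

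Total counts per sample ranged from 27709971 to 45271146 (median, 30701840), and those of the *AGO2* knockout cells were between 40419152 and 45271146. Headers of the files for *AGO2* knockout cells give a different mode of quantification, which cannot be told apart from the genotype. Of the targeted genes, *AGO1* RNA was 108 to 146 CPM (counts in proportion to library size, with TMM scaling) in wild-type cells and 28.7 to 39.5 CPM in every sample of the 3 lines that lack *AGO1*. *AGO3* RNA was 100 to 130 CPM in wild-type and 46.1 to 57.4 CPM in *AGO1/2/3* knockout cells. *AGO2* RNA does not check the labels. It was 379 to 459 CPM in wild-type, 262 to 314 CPM in *AGO2* knockout, 321 to 365 CPM in *AGO1/2* knockout and 518 to 557 CPM in *AGO1/2/3* knockout cells, and the lines are named here as they were labelled. Epithelial markers were present in all lines (*EPCAM* at least 61.9 CPM, *KRT8* at least 490 CPM), but *EPCAM* and *CDH1* were lower in *AGO1/2/3* knockout cells. Means in wild-type and *AGO1/2/3* knockout cells were 213 and 63.6 CPM for *EPCAM* and 97.7 and 8.57 CPM for *CDH1*. They were 642 and 852 CPM for *KRT8*, 508 and 617 CPM for *KRT18* and 351 and 355 CPM for *KRT19*. The T cell gene *CD3E* had at most 1 count in any sample. The mean level was 0.966 CPM for *PTPRC*, 1.59 CPM for *PECAM1* and 23.9 CPM for *COL1A1* in wild-type cells.

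Levels in wild-type cells were compared per length. Per kilobase of the MANE Select transcript, the highest mean levels were 63.8 ± 21.2 CPM per kb (SD, n = 3) for *TNFRSF12A* and 59.6 ± 36.3 for *TNFRSF10B*, whose ranges overlapped. *TNFRSF1A* followed at 29.5 ± 5.67, *TNFRSF21* at 18.3 ± 0.545 and *TNFRSF10A* at 13.8 ± 2.05 CPM per kb. *TNFSF9* was the most abundant ligand at 7.25 ± 1.48 and *FAS* the least abundant receptor at 3.54 ± 0.157 CPM per kb. *TNFSF15* (0.0819 ± 0.0199 CPM per kb) and *TNFSF10* (0.0607 ± 0.00851) were near the limit of detection.

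Across the 4 knockout lines, the largest number of these genes changed in *AGO1/2/3* knockout cells. *TNFSF9*, *TNFSF10* and *FAS* rose and *TNFRSF21* fell, so that 3 of the 9 were called higher and 1 lower at an adjusted p of 0.05 or less, beside 20.3% higher and 19.8% lower of all 22842 genes tested. Triple knockout and wild-type replicates did not overlap for 5 of the 9 genes and for 50.0% of all genes. The median log2 fold change was 0.32 over the 9 genes and -0.01 over all genes tested. All genes tested include non-coding genes, whereas each of the 9 has a MANE Select 3′-UTR. Among genes tested with one, the share called higher was 26.0% without a let-7 match and 35.4% with it. In bulk RNA, fewer expressing cells and less RNA per cell cannot be told apart.

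**Figure D2:**
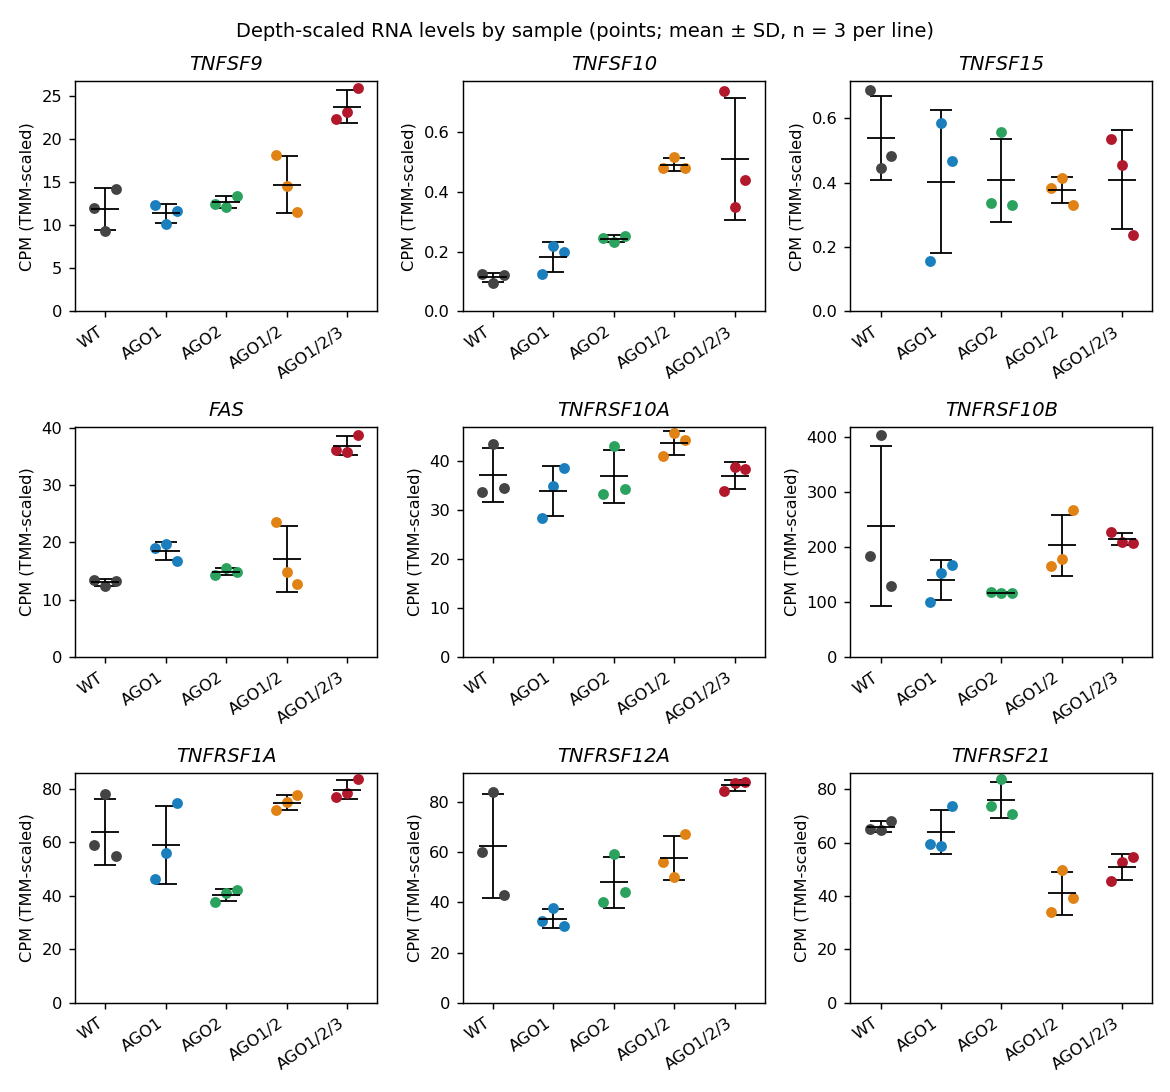
Level of each gene in the 15 samples. Points are samples in CPM scaled by the TMM method, and bars show the mean ± SD of the 3 replicates of a line, with axes that start at 0. *TNFSF9* and *FAS* lie above all other samples in *AGO1/2/3* knockout cells, and wild-type replicate 2 stands far above the other samples for *TNFRSF10B*.

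Among the ligands, *TNFSF9* (CD137L, chr19:6531026-6535924, plus strand, ENSG00000125657) encodes the ligand of the T cell costimulatory receptor TNFRSF9. Its level was 12.0, 9.34 and 14.2 CPM in the wild-type replicates and 22.3, 23.1 and 25.9 CPM in the *AGO1/2/3* knockout replicates. In *AGO1/2* knockout cells it was 18.1, 14.5 and 11.5 CPM. Every *AGO1/2/3* knockout sample was above every other sample, whereas the other 4 lines overlapped. Against wild-type the log2 fold change was 1.0 ± 0.163 (SE), or 2.01-fold (edgeR, adjusted p = 0.000158). Against *AGO1/2* knockout cells it was 0.69 ± 0.162 (adjusted p = 0.00605), so the step from the double to the triple knockout passed the test by itself. In *AGO1* knockout (10.1 to 12.3 CPM) and *AGO2* knockout cells (12.1 to 13.4 CPM) the log2 fold changes were -0.06 and 0.09, with 95% confidence intervals of -0.41 to 0.29 and -0.25 to 0.44. In *AGO1/2* knockout cells it was 0.31 (-0.04 to 0.66). The rise in *AGO1/2/3* knockout cells stayed past the threshold under all 22 alternative settings.

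*TNFSF10* (TRAIL, chr3:172505508-172523475, minus strand, ENSG00000121858) was rare in all samples. The counts were 4, 3 and 4 in wild-type, 4, 6 and 6 in *AGO1* knockout and 11, 10 and 10 in *AGO2* knockout cells. They were 15, 15 and 13 in *AGO1/2* knockout and 29, 10 and 13 in *AGO1/2/3* knockout cells. On the CPM scale the mean went from 0.114 ± 0.016 in wild-type to 0.492 ± 0.0217 in *AGO1/2* knockout and 0.51 ± 0.204 in *AGO1/2/3* knockout cells, and neither knockout line overlapped wild-type. This was a log2 fold change of 2.07 ± 0.369 in the double knockout (adjusted p = 0.00122) and 2.16 ± 0.361 in *AGO1/2/3* knockout cells (adjusted p = 0.000202). *TNFSF10* passed the filter on low counts through these lines only, with at most 0.253 CPM in any other sample. The filter and these calls therefore rest on the same values. Without the filter both calls held. With the summed counts alone, 52 against 11, the depth-scaled ratio in *AGO1/2/3* knockout cells was 4.69 with a 95% interval of 2.42 to 9.97, which covers counting error only. The log2 fold change in *AGO2* knockout cells, 1.07 (0.23 to 1.91), did not pass the test after adjustment (adjusted p = 0.0857), nor did that in *AGO1* knockout cells, 0.64 (-0.30 to 1.57). The double and triple knockout differed by 0.09 (-0.52 to 0.70).

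*TNFSF15* (TL1A, chr9:114784652-114806039, minus strand, ENSG00000181634), the ligand of TNFRSF25, had between 5 and 24 counts per sample. Its mean level was highest in wild-type cells, at 0.539 ± 0.131 CPM, and lowest in *AGO1/2* knockout cells, at 0.377 ± 0.0417 CPM. The 4 log2 fold changes lay between -0.51 and -0.37 and none passed the test, with intervals that reached from -1.38 to 0.47, so a change of this size was not detectable at this depth.

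Among the receptors, *FAS* (CD95, chr10:88953813-89029605, plus strand, ENSG00000026103) had the lowest adjusted p of the 9 genes in *AGO1/2/3* knockout cells. It encodes the receptor of FAS ligand, which recruits FADD through its death domain. *FAS* RNA was 13.5, 12.4 and 13.3 CPM in wild-type and 36.1, 35.7 and 38.8 CPM in *AGO1/2/3* knockout cells. In *AGO1/2* knockout cells it was 23.6, 14.9 and 12.7 CPM. All *AGO1/2/3* knockout samples were above all other samples. Against wild-type the log2 fold change was 1.49 ± 0.168, or 2.82-fold (adjusted p = 4.78e-06), and against *AGO1/2* knockout cells 1.11 ± 0.166 (adjusted p = 0.000202). Both held under all 22 alternative settings. *AGO1* knockout cells, at 16.8 to 19.8 CPM, did not overlap wild-type, but the log2 fold change of 0.50 ± 0.167 did not pass the test (adjusted p = 0.0786). It passed without the filter on low counts (adjusted p = 0.0436) and without replicate 1 (0.00807) or replicate 3 (0.0383) of the *AGO1/2* knockout cells.

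*FAS* overlaps *STAMBPL1* on the same strand, and *ACTA2* on the opposite strand. *STAMBPL1* RNA rose from a mean of 11.1 to 36.7 CPM in *AGO1/2/3* knockout cells (log2 fold change 1.73 ± 0.142, adjusted p = 2.12e-07), while *ACTA2* was at 5.62 and 5.04 CPM. Overlap between the exons was not analysed here. Where exons overlap, reads could be split between genes in the counting, and whether strand was used is not given in the sources used here. The share of the *FAS* value that this could touch was not tested. Within 5 Mb of *FAS*, 59 other genes at or above a mean of 1 CPM had a median log2 fold change of 0.43 (quartiles 0.03 and 0.82) in *AGO1/2/3* knockout cells. The same median was -0.08 over the 225 genes around *TNFSF9* and 0.23 over the 28 genes around *TNFSF10*.

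Neither TRAIL receptor was called higher than in wild-type cells in any knockout line. *TNFRSF10A* (DR4, chr8:23190452-23225102, minus strand, ENSG00000104689) had mean levels between 33.9 ± 5.14 CPM in *AGO1* knockout and 43.7 ± 2.40 CPM in *AGO1/2* knockout cells. Lines next to each other in mean *TNFRSF10A* level overlapped. All *AGO1/2* knockout samples (41.0 to 45.7 CPM) lay above all *AGO1* knockout (28.4 to 38.5 CPM) and *AGO1/2/3* knockout samples (33.8 to 38.8 CPM). Its log2 fold changes against wild-type lay between -0.13 and 0.23, and the interval in *AGO1/2/3* knockout cells was -0.30 to 0.28.

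*TNFRSF10B* (DR5, chr8:23020133-23069031, minus strand, ENSG00000120889) varied most between replicates. It was 183, 403 and 129 CPM in wild-type, 99.4, 152 and 168 CPM in *AGO1* knockout and 165, 178 and 267 CPM in *AGO1/2* knockout cells. *AGO2* knockout samples were at 118, 117 and 116 CPM, and *AGO1/2/3* knockout samples at 228, 209 and 208 CPM. All *AGO2* knockout samples lay below all wild-type samples, and all *AGO1/2/3* knockout samples lay within the wild-type range. *TNFRSF10B* was called lower in *AGO2* knockout cells than in wild-type cells, by a log2 difference of -1.03 ± 0.314 (adjusted p = 0.035). This call was lost without wild-type replicate 2 (-0.44, adjusted p = 0.207), without each of the *AGO2* knockout replicates (adjusted p = 0.0626 to 0.101) and with only the 6 samples compared (0.0959). Against wild-type, the difference was -0.77 (-1.44 to -0.10, adjusted p = 0.152) after loss of *AGO1* and -0.15 (-0.81 to 0.51) in the triple knockout. Without wild-type replicate 2 these were -0.16 and 0.43, and neither was called. The difference after loss of *AGO1* was called without wild-type replicate 3 (-1.07, adjusted p = 0.0282) and without the filter on low counts (-0.75, adjusted p = 0.0351). On the opposite strand *TNFRSF10B* overlaps *RHOBTB2*, which was at a mean of 11.1 CPM in wild-type and 23.3 CPM in *AGO1/2/3* knockout cells.

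*DDIT3* encodes CHOP, a transcription factor of the endoplasmic reticulum and amino acid stress responses that is known to activate *TNFRSF10B*, and it was chosen after its values were seen. *DDIT3* RNA was 27, 35.2 and 9.29 CPM in wild-type, 12.0, 33.0 and 39.0 CPM in *AGO1* knockout and 8.68, 8.04 and 39.1 CPM in *AGO1/2* knockout cells. In each of these 3 lines the sample highest in *DDIT3* was also the highest in *TNFRSF10B*. *DDIT3* was 5.89 to 6.61 CPM in *AGO2* knockout cells, the line with the lowest mean of *TNFRSF10B*. There the sample highest in *DDIT3*, replicate 3, was the lowest in *TNFRSF10B* (116 CPM). In *AGO1/2/3* knockout cells *DDIT3* was as low, at 5.01 to 5.97 CPM, beside *TNFRSF10B* levels of 208 to 228 CPM, with replicate 1 the highest for both. *ASNS* and *TRIB3*, other genes of that response, were highest of the wild-type samples in replicate 2 (479 and 135 CPM) and lowest in replicate 3 (74.5 and 18.0 CPM). Among *AGO1* knockout samples they were highest in replicate 2 (437 and 97.4 CPM), not in replicate 3 (314 and 85.4 CPM), the highest for *DDIT3* and *TNFRSF10B*. In *AGO1/2* knockout cells replicate 3 was the highest for both (271 and 80.6 CPM), and over all samples the lowest values were in *AGO1/2/3* knockout cells (20.9 and 8.7 CPM). The part of this difference between samples in the *TNFRSF10B* values was not tested.

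**Figure D3:**
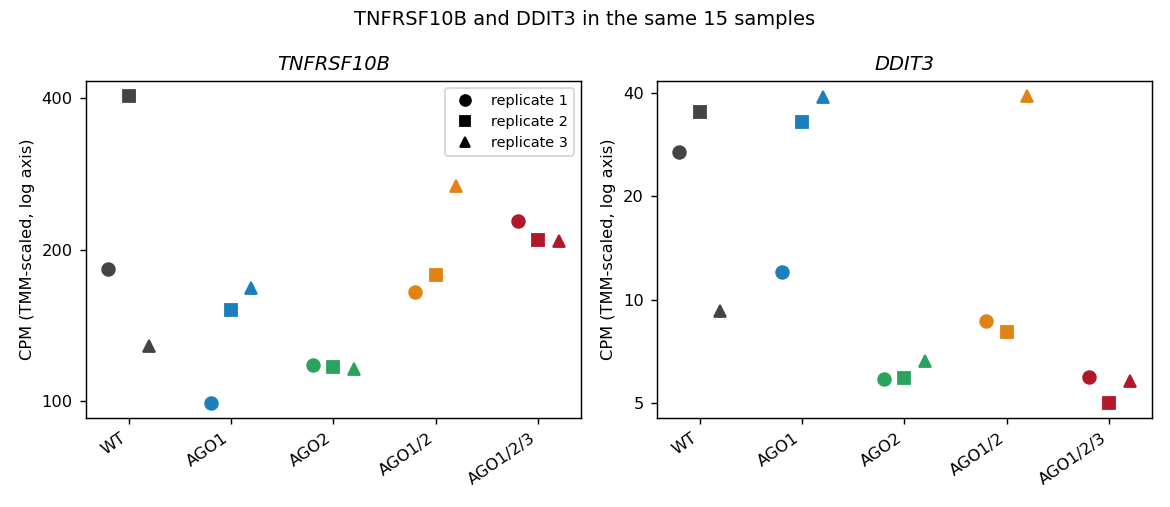
*TNFRSF10B* (left) and *DDIT3* (right) in the same 15 samples, in CPM on log axes, with a marker shape for each replicate number. Wild-type replicate 2, *AGO1* knockout replicate 3, *AGO1/2* knockout replicate 3 and *AGO1/2/3* knockout replicate 1 are the highest of their lines for both genes. *AGO2* knockout replicate 3 is the highest of its line for *DDIT3* and the lowest for *TNFRSF10B*. *AGO1/2/3* knockout samples are at 208 to 228 CPM for *TNFRSF10B* and at 5.01 to 5.97 CPM for *DDIT3*.

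*TNFRSF1A* (TNFR1, chr12:6328757-6342114, minus strand, ENSG00000067182) is the main receptor of TNF on epithelial cells. It was 59.0, 78.0 and 54.9 CPM in wild-type and 37.8, 41.1 and 42.1 CPM in *AGO2* knockout cells, without overlap. The difference of -0.67 ± 0.153 on the log2 scale passed the test (adjusted p = 0.0103), and without wild-type replicate 2 it was -0.52 (adjusted p = 0.0373). The double and triple knockout cells were at means of 74.7 ± 2.82 and 79.7 ± 3.59 CPM. In the triple knockout the log2 fold change was 0.32 (-0.01 to 0.64, adjusted p = 0.113), and it was called without wild-type replicate 2 (0.46, adjusted p = 0.0222).

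*TNFRSF12A* (Fn14, chr16:3018445-3022383, plus strand, ENSG00000006327) encodes the receptor of the ligand TNFSF12. It was 60.1, 84.0 and 42.9 CPM in wild-type, and all 3 *AGO1* knockout samples, at 32.5, 37.7 and 30.5 CPM, were lower. It fell in *AGO1* knockout cells by 0.89 ± 0.201 on the log2 scale (adjusted p = 0.0122), although not in a fit of those 6 samples alone (adjusted p = 0.0885). *AGO1/2/3* knockout samples, at 84.1, 87.5 and 88.0 CPM, were just above the highest wild-type sample. This log2 fold change of 0.47 (0.05 to 0.90) did not pass the test (adjusted p = 0.071) except without wild-type replicate 2 (0.72, adjusted p = 0.00467) or without the filter on low counts (0.45, adjusted p = 0.0459).

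*TNFRSF21* (DR6, chr6:47231532-47309905, minus strand, ENSG00000146072) was the only one of the 9 genes called lower in both the double and the triple knockout. It was 65.0, 64.6 and 68.2 CPM in wild-type, 34.1, 49.9 and 39.1 CPM in *AGO1/2* knockout and 45.5, 52.8 and 54.4 CPM in *AGO1/2/3* knockout cells. Neither line overlapped wild-type. On the log2 scale the difference was -0.68 ± 0.135 in the double knockout (adjusted p = 0.00258), a call kept under all 22 alternative settings. In the triple knockout it was -0.37 ± 0.134 (adjusted p = 0.0367), a call lost without wild-type replicate 1 (adjusted p = 0.0543) or 3 (0.0636) and without *AGO1/2/3* knockout replicate 1 (0.115) or 2 (0.0593). *AGO1* and *AGO2* knockout cells had means of 63.8 ± 8.33 and 75.9 ± 6.80 CPM and were not called.

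**Figure D4:**
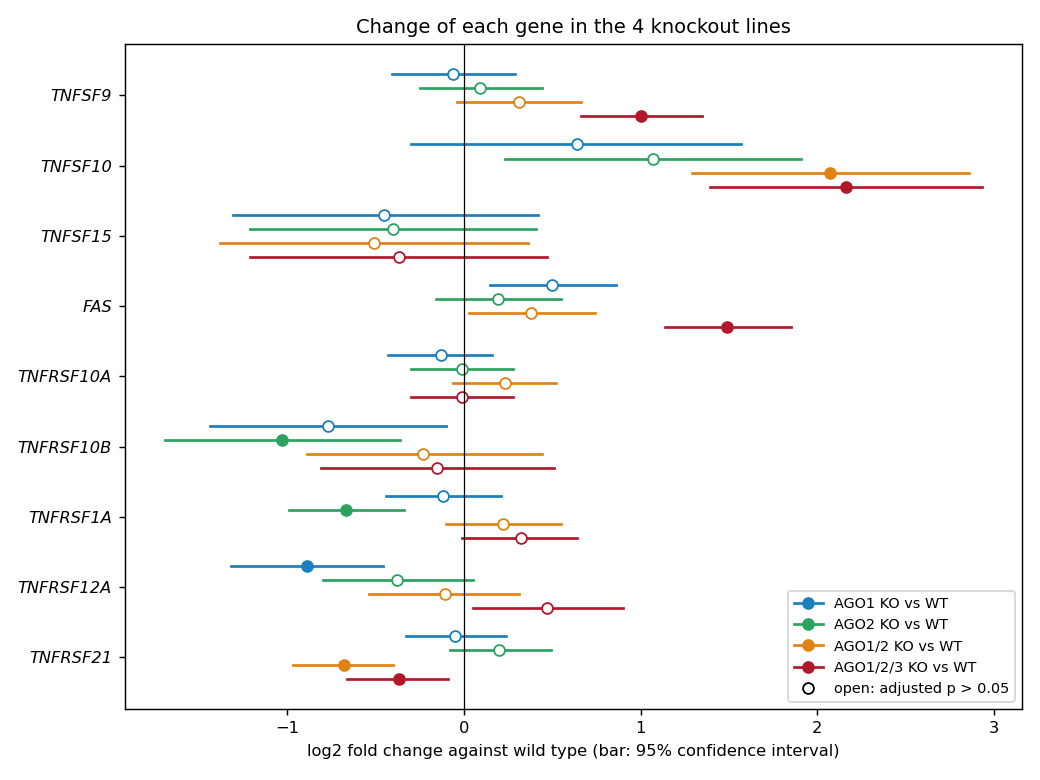
Log2 fold change of each gene against wild-type cells in the 4 knockout lines, with bars for the 95% confidence interval. Filled circles passed the test (adjusted p at or under 0.05) and open circles did not. In *AGO1/2/3* knockout cells *TNFSF9* (1.0), *TNFSF10* (2.16) and *FAS* (1.49) lie to the right of 0 and *TNFRSF21* (-0.37) to the left.

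Counted by line, 1 of the 9 genes (*TNFRSF12A*) was called lower and 0 higher in *AGO1* knockout cells, beside 5.5% lower and 3.17% higher of all genes tested with edgeR. At an unadjusted p under 0.05, 1 of the 9 genes (*FAS*) was higher there, and DESeq2 also called 0 higher. In *AGO2* knockout cells 2 (*TNFRSF10B* and *TNFRSF1A*) were called lower and 0 higher, beside 10.8% and 8.55%. At an unadjusted p under 0.05, 1 gene (*TNFSF10*) was higher there, and DESeq2 again called 0 higher. In *AGO1/2* knockout cells 1 (*TNFSF10*) was higher and 1 (*TNFRSF21*) lower, beside 8.37% and 8.35%. Replicates did not overlap wild-type for 2 of the 9 genes in *AGO1* knockout (23.1% of all genes), 5 in *AGO2* knockout (37.1%) and 3 in *AGO1/2* knockout cells (29.7%). These comparisons share the wild-type samples.

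The direct comparison of *AGO1/2/3* with *AGO1/2* knockout cells addresses the additional loss of AGO3, and the genotypes were again represented by 1 line each. *TNFSF9*, *FAS* and *TNFRSF12A* were called higher, 3 of the 9, beside 11.9% of all genes tested, and 0 were called lower, beside 10.0%. For *TNFRSF12A* the log2 fold change of 0.59 ± 0.199 was close to the threshold (adjusted p = 0.0473) and was no longer called under 14 of the 22 alternative settings, with adjusted p up to 0.178. No gene of the 9 was lower with an unadjusted p under 0.05, and DESeq2 called 0 lower.

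The double knockout was also compared with each single knockout. Against *AGO1* knockout cells, *TNFSF10* (1.44 ± 0.346, adjusted p = 0.00781) and *TNFRSF12A* (0.78 ± 0.201, adjusted p = 0.0119) were higher and *TNFRSF21* lower (-0.64 ± 0.135, adjusted p = 0.00319), beside 11.5% of all genes higher and 7.95% lower. Without *AGO1* knockout replicate 3 or *AGO1/2* knockout replicate 3 the *TNFRSF12A* call was lost (adjusted p = 0.0509 and 0.0643). Against *AGO2* knockout cells, *TNFSF10* (1.0 ± 0.308, adjusted p = 0.0278) and *TNFRSF1A* (0.89 ± 0.154, adjusted p = 0.000792) were higher and *TNFRSF21* lower (-0.89 ± 0.135, adjusted p = 0.000277), beside 12.8% and 11.1%. The *TNFSF10* call against *AGO2* knockout cells was lost without any single sample of either line (adjusted p = 0.055 to 0.0879), with DESeq2 (0.143) and without the filter on low counts (0.0988). With DESeq2 the *TNFSF10* call against *AGO1* knockout cells was lost too (0.0522).

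The difference between the change in *AGO1/2* knockout cells and the sum of the changes in the 2 single knockouts was tested directly. It was above 0 for *TNFRSF10B* (1.57 ± 0.442, adjusted p = 0.0219), *TNFRSF1A* (1.01 ± 0.216, adjusted p = 0.00498) and *TNFRSF12A* (1.16 ± 0.283, adjusted p = 0.0105), and below 0 for *TNFRSF21* (-0.84 ± 0.190, adjusted p = 0.00659). Of all genes tested 11.5% were above and 8.26% below. The difference includes the *AGO2* knockout line, whose genotype and mode of quantification cannot be told apart, and each genotype was 1 line. The 3 receptors above 0 had lower mean levels in both single knockouts than in wild-type cells. Their log2 fold changes in the double knockout, -0.23, 0.22 and -0.11 in the same order, were not called. For *TNFSF9* and *TNFSF10* the difference was 0.28 (-0.22 to 0.77) and 0.37 (-0.83 to 1.56), and for *FAS* it was -0.31 (-0.81 to 0.19).

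The genes with a let-7 match were compared with the rest as a description. In *AGO1/2/3* knockout cells 3 of the 3 genes with a match (*TNFSF9*, *TNFSF10* and *FAS*) were called higher, and 0 of the 6 without. Over all genes tested that have a MANE Select 3′-UTR, 35.4% of the 1622 with a match and 26.0% of the 12812 without were called higher. In *AGO1/2* knockout cells these shares were 12.6% and 10.5%, and *TNFSF10* was the only one of the 3 genes called. Length of the 3′-UTR was not held equal in these shares, and longer 3′-UTRs more often hold a match. A let-7 match was present in 2.92% of 3′-UTRs near the 541 bases of *TNFRSF1A* and 28.6% near the 5800 bases of *TNFSF15*. The matches of the other motifs are listed beside the calls in *AGO1/2/3* knockout cells. Matches for miR-29a lay in *TNFSF9* and *FAS*, called higher, and in *TNFRSF10B* and *TNFRSF1A*, not called. The only miR-27a match lay in *FAS*. Those for miR-21 (*TNFSF15* and *TNFRSF10B*) and miR-125b (*TNFRSF10B*) lay in genes not called there. A role of let-7 in these calls was not tested. Levels of the miRNAs in these lines were not analysed here.

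Of the other genes, those whose log2 CPM was most like that of *TNFSF9* over the 15 samples were *PLA2G15* (Pearson r = 0.965), *EEIG2* (0.965) and *BAHD1* (0.955), among 16083 genes compared. For *TNFSF10* they were *LINC01031* (0.927), *TMEM167A* (0.922) and *RO60* (0.916). The samples fall into 5 lines that share a genotype within each, so these values describe a common pattern across lines.

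The rest of the pathway was followed with 75 further genes, of which 61 passed the filter. These too were chosen with earlier results of these data known. Transcripts of *TNF*, *LTA*, *LTB*, *FASLG*, *CD40LG* and *RIPK3* had at most 4 counts in any sample and were not tested. In *AGO1/2/3* knockout cells 24 of the 61 rose (39.3%) and 9 fell (14.8%), beside 20.3% and 19.8% of all genes tested, and the median log2 fold change was 0.22. The double knockout had 10 genes that rose and 6 that fell, *AGO2* knockout cells 5 and 9, and *AGO1* knockout cells 2 and 2. The shares that rose and fell were 8.2% and 14.8% in *AGO2* knockout cells, beside 8.55% and 10.8% of all genes, and 3.28% and 3.28% in *AGO1* knockout cells, beside 3.17% and 5.5%. In the double knockout they were 16.4% and 9.84%, beside 8.37% and 8.35%. The shares of all genes include non-coding genes. Among genes tested with a MANE Select 3′-UTR, the share called higher was larger. In the triple knockout it was 26.0% without a let-7 match and 35.4% with it, and in the double knockout 10.5% and 12.6%.

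Adaptors and caspases that act next to the receptors were the largest group among the genes that rose. In *AGO1/2/3* knockout cells 9 of the 12 rose, among them *FADD*, *RIPK1*, *CFLAR*, *FAIM*, *PEA15*, *BID* and *CASP6*. *CFLAR*, which encodes the caspase 8 inhibitor FLIP, went from 62.2 to 83.1 CPM in wild-type to 127 to 137 CPM (log2 fold change 0.89 ± 0.106, adjusted p = 8.34e-06). *PEA15*, whose product binds FADD and caspase 8 and can block the death signal, went from 37.0 to 53.5 CPM to 83.5 to 97.3 CPM (1.10 ± 0.158). The group therefore held genes that carry the signal and genes that block it. *CASP8* did not pass the test (0.01 ± 0.107), and *CASP10* fell (-0.95 ± 0.241, adjusted p = 0.00538), from 5.52 to 9.37 CPM to 3.56 to 4.01 CPM.

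Of the 4 inhibitor of apoptosis genes and their antagonist, *BIRC2* and *BIRC3* (cIAP1 and cIAP2), ubiquitin ligases of the TNF receptor complex, rose. *BIRC2* was 66.4, 83.8 and 73.7 CPM in wild-type and 182, 184 and 220 CPM in *AGO1/2/3* knockout cells (1.39 ± 0.112, adjusted p = 1.78e-07). *BIRC3* was 10.8, 8.96 and 12.6 CPM in wild-type, 18.1, 34.1 and 21.0 CPM in *AGO1/2* knockout and 41.5, 30.7 and 34.3 CPM in *AGO1/2/3* knockout cells (1.71 ± 0.225, adjusted p = 2.2e-05). *BIRC3* thus also rose in *AGO1/2* knockout cells (1.17 ± 0.224, adjusted p = 0.00205), where *BIRC2* did not pass the test (0.17 ± 0.111).

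Of the 6 TRAF genes, *TRAF5* and *TRAF6* rose and *TRAF1* fell in *AGO1/2/3* knockout cells, the last from 2.88 to 2.96 CPM to 0.881 to 1.45 CPM (-1.21 ± 0.204, adjusted p = 0.000214). Of 13 genes of linear ubiquitin and the NF-κB branch, 7 rose, among them *OTULIN*, *CYLD* and *TNFAIP3*, whose products limit the signal, and *CHUK* and *IKBKG*, which encode kinase complex subunits. For *TNFAIP3* (0.51 ± 0.167, adjusted p = 0.0227) the replicates overlapped wild-type. *SHARPIN* (-0.69 ± 0.118, adjusted p = 0.00026) and *RBCK1* (-2.40 ± 0.604, adjusted p = 0.00494), subunits of the linear ubiquitin ligase, fell. *RBCK1* was 69.9, 289 and 32.2 CPM in wild-type and 23.8 to 25.9 CPM in *AGO1/2/3* knockout cells, and without wild-type replicate 2 its log2 fold change was -1.08 (adjusted p = 0.0457).

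Partners of the 9 genes differed in direction. *TNFRSF9*, the receptor of TNFSF9, rose in *AGO1/2/3* knockout cells (0.80 ± 0.172, adjusted p = 0.00158). *TNFSF12*, the ligand of TNFRSF12A, was 4.11 to 5.61 CPM in wild-type, 7.72 to 8.29 CPM in *AGO1/2* knockout and 8.83 to 10.3 CPM in *AGO1/2/3* knockout cells (0.96 ± 0.125, adjusted p = 2.09e-05). *TNFRSF25*, the receptor of TNFSF15, fell in each knockout line, with log2 fold changes between -1.46 and -1.04, from 11.1 to 17.2 CPM in wild-type to 4.10 to 7.37 CPM in *AGO1/2/3* knockout cells. The decoy receptors *TNFRSF10C*, *TNFRSF10D* and *TNFRSF6B* did not pass the test in *AGO1/2/3* knockout cells. *TNFRSF10C* (-0.71 ± 0.215, adjusted p = 0.0341) and *TNFRSF6B* (-1.81 ± 0.495, adjusted p = 0.0225) fell in *AGO2* knockout cells. Of the 8 other ligands tested 3 fell and 2 rose in *AGO1/2/3* knockout cells. *TNFSF18* fell from 6.57 to 10.5 CPM to 1.93 to 3.04 CPM (-1.80 ± 0.393, adjusted p = 0.00179). *TNFSF13* (-1.70, adjusted p = 0.0182) and *CD70* (-1.17, adjusted p = 0.0303) also fell, and *TNFSF4* rose with *TNFSF12* (0.60 ± 0.199, adjusted p = 0.0241, for *TNFSF4*). *TNFSF13* had at most 93 counts and *CD70* at most 37 in any sample, and the *CD70* replicates overlapped wild-type. *EDAR*, named after its values were seen because it had the highest fold change of the 61 genes, rose in *AGO1/2/3* knockout cells (2.71 ± 0.537, adjusted p = 0.00085) with at most 92 counts in any sample.

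**Figure D5:**
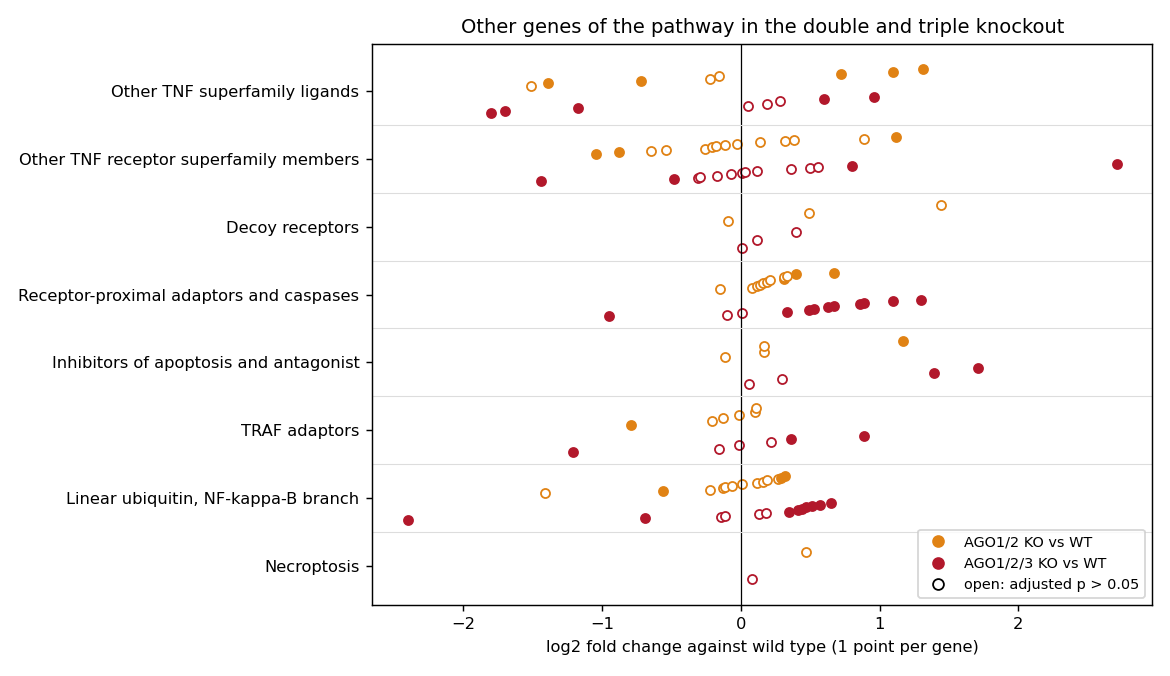
Log2 fold changes of the 61 other pathway genes against wild-type in *AGO1/2* (orange) and *AGO1/2/3* knockout cells (red), with 1 point per gene, grouped by role. Filled points passed the test (adjusted p at or under 0.05) and open points did not. In *AGO1/2/3* knockout cells 9 of 12 adaptors and caspases are filled to the right of 0.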

How the data were processed

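Reads were filtered for quality by the authors, mapped to hg38 (STAR) and summarised per gene (Salmon), and the deposited values are estimated counts without scaling for depth. The submitters' processing notes give STAR 2.5.3a, Salmon 0.11.0 and DESeq2. Here the estimated counts of the 15 RNAseq samples were rounded, filtered with filterByExpr and normalized by TMM in edgeR 4.0.16 (R 4.3.3). All 15 were fitted together, by line, and tested by quasi-likelihood, with Benjamini-Hochberg adjustment over 22842 genes (called at 0.05 or less). Positions and transcripts came from GENCODE 44. Alternatives were DESeq2 1.42.0, other scalings and filters, fits of 6 samples, a replicate block and each sample left out. The fit was tested on simulated data. No pair of files was identical. The 9 genes, the miRNAs and the pathway lists were chosen with earlier results of these data known. Named pathway genes were taken from the 6 largest called changes in each direction in *AGO1/2/3* knockout cells, with a mean of at least 1 CPM and replicates that did not overlap, and others are named as members of their groups or as partners of the 9 genes. Some genes of these lists are not reported here by name. Genes like *TNFSF9* and *TNFSF10*, the latter with the largest change, were ranked by Pearson r of log2 CPM (prior count of 2). Replicates may share a culture history, so p-values measure only the spread between these samples. Floors and counting intervals (95%) cover counting error only.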

Additional observations from a re-analysis of the deposited data

Results flagged for a closer look

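For 4 receptors the change in the *AGO1/2* knockout line differed from the sum of the changes in the single knockout lines. Each genotype was 1 line, and in the *AGO2* knockout line genotype and mode of quantification cannot be told apart. Of all genes tested 11.5% were called above that sum and 8.26% below. On the log2 scale the difference was 1.57 for *TNFRSF10B*, 1.01 for *TNFRSF1A*, 1.16 for *TNFRSF12A* and -0.84 for *TNFRSF21*. Without wild-type replicate 2 the values were 0.97 (adjusted p = 0.0302), 0.85 (0.00737), 0.89 (0.016) and -0.82 (0.0113), in the same order. For *TNFRSF10B* the call was lost without *AGO1* knockout replicate 1 (1.37, adjusted p = 0.0569) and without *AGO1/2* knockout replicate 3 (1.29, adjusted p = 0.0659), the sample with the highest *DDIT3* of its line. The part of that sample difference was not tested.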

How the results depend on the processing

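Over 22 alternative settings, 52 of 72 member results stayed on their side of the threshold in each setting run. Of 1557 values compared, 0 changed sign while called and 32 did so while not called. With samples left out in turn, the count of members called higher ranged from 0 to 1 in *AGO1* knockout, from 1 to 2 in *AGO1/2* knockout and from 3 to 5 in *AGO1/2/3* knockout cells, the highest without wild-type replicate 2. The count called lower ranged from 1 to 2 in *AGO1*, 1 to 3 in *AGO2* and 0 to 1 in *AGO1/2/3* knockout cells. Without the filter on low counts 1 was higher and 2 were lower in *AGO1* knockout cells. With only the 6 samples compared, 0 were lower in *AGO1* and 1 in *AGO2* knockout cells. With at least 10 counts in every sample *TNFSF10* and *TNFSF15* were not tested, and 0 were higher in *AGO1/2* knockout cells. With the replicate block 1 (*TNFRSF1A*) was lower in *AGO2* knockout cells, and *TNFRSF10B* (-0.97, adjusted p = 0.0515) was not called. The replicate numbers did not pair the samples (mean r = -0.0114 over 30 pairs with the same number, 0.00563 over 60 others, and 6 of 15 samples correlated best with their own number). Under the block *TNFRSF10A* was also called higher in *AGO1/2* against *AGO1* knockout cells (0.37, adjusted p = 0.0282). Calls gained with 1 sample left out, beside those given with each gene, were *TNFRSF12A* in *AGO2* knockout cells (without wild-type replicate 3, -0.61, adjusted p = 0.0239) and *FAS* in *AGO1/2* knockout cells (without their replicate 3, 0.56, adjusted p = 0.0307). *TNFRSF21* was called higher in the triple than in the double knockout (without *AGO1/2* knockout replicate 2, 0.47, adjusted p = 0.0246). Between *AGO1/2* and *AGO1* knockout cells they were *FAS* (without *AGO1/2* knockout replicate 1, -0.45, 0.0182), *TNFRSF10A* (without wild-type replicate 2, 0.35, 0.0483) and *TNFRSF1A* (without *AGO1* knockout replicate 3, 0.52, 0.0161). Between *AGO1/2* and *AGO2* knockout cells *TNFRSF10B* was called without wild-type replicate 2 (0.81, 0.00617) or 3 (0.81, 0.0292). The joint loss differed from the sum of the single losses for *FAS* without *AGO1/2* knockout replicate 1 (-0.62, 0.0153).

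Scaling by total counts moved the median of all genes to -0.10 in *AGO1* knockout cells, to -0.14 in *AGO2* knockout cells, to -0.08 in the double and to -0.15 in the triple knockout. In that order, genes called higher and lower were then 511 and 1981, 737 and 3588, 1395 and 2596, and 3461 and 5961, against 725 and 1257, 1952 and 2456, 1913 and 1907, and 4644 and 4522 with TMM. With only the 6 samples compared they were 219 and 439, 528 and 1340, and 927 and 1189 in the first 3 lines. Without wild-type replicate 2 they were 494 and 1380 in *AGO2* knockout cells. Genes called higher there were 1074 without wild-type replicate 1, 1253 without *AGO1/2* knockout replicate 2, and 1295 and 1113 without *AGO1/2/3* knockout replicates 1 and 2. In the double knockout 1204 were called higher without its replicate 2. Genes called higher and lower in *AGO2* knockout cells were 389 and 1140 without their replicate 2 and 506 and 1322 without their replicate 3, and without *AGO1* knockout replicate 1 or 2 they were 506 and 648 or 389 and 575 in *AGO1* knockout cells. The depth limits *TNFSF10* and *TNFSF15*, with at most 29 and 24 counts per sample.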
